A study of Caenorhabditis elegans with 2 samples.

Results

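MicroRNA genes were examined for binding of PHA-4 in Caenorhabditis elegans embryos. All 261 genes annotated as microRNA genes on the nuclear chromosomes were taken, out of 46890 annotated genes. Membership follows from the annotation alone, although the members were chosen with earlier results of these data known. Embryos of mixed stages, whole and with sexes pooled, came from strain OP37, which carries unc-119(ed3) III and the integrated array wgIs37 supplying PHA-4 fused to eGFP. The labels' antibody entry reads pha-4, while another label gives the eGFP fusion, so whether native PHA-4 was precipitated too is not settled by the labels. The listed genotype names no change in the native pha-4 gene. Chromatin immunoprecipitation and sequencing (ChIP-seq) was done on 2 biological replicates, each a separate biosample of the same strain, in 1 group with no control group analysed here. Every cell of the embryo contributes to the chromatin, so fewer cells with PHA-4 on a site and less PHA-4 per cell cannot be told apart.

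PHA-4 is the worm's FoxA transcription factor, the selector of pharynx identity, and it is also made in the developing gut. A microRNA gene is transcribed into a long precursor, from which a hairpin and then a short mature RNA are cut, and the mature RNA represses messenger RNAs that pair with its seed, bases 2 to 8. Several worm families of shared seed act redundantly in the embryo, among them the mir-51 family, whose joint loss kills embryos with a pharynx that fails to attach to the mouth, and the mir-35 family, which is needed for embryonic survival. A factor bound just upstream of a hairpin lies where promoters and enhancers of microRNA genes are usually sought.

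A gene was called bound when the summit of a peak in the authors' thresholded set lay from 1000 bp upstream to 200 bp downstream of its annotated 5′ end. The authors took that set from an irreproducible discovery rate comparison of the replicates. It holds 2177 peaks with pooled signals of 35.9 to 348. Its lowest signal was 35.9104 and the highest pooled signal outside it was 35.904, so membership followed pooled signal. A call therefore does not show that a peak was strong in each replicate. The signal is the peak caller's own value against control reads, and it has no common scale between the pooled and the replicate lists. For nearly all microRNA genes the annotated 5′ end is that of the hairpin, not the start of transcription. The longer pooled list of 21931 entries and the replicate lists of 30000 entries each also hold weak entries kept as background. The read depth of each replicate is unknown, intervals below are exact binomial intervals at 95% that cover counting error only, and the spread between replicates is given as both values. The design has no contrast between groups and so no test between conditions.

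The mir-51 family carried the most complete binding among the microRNA families listed. Its mature products, shown because all 6 genes were bound, share the seed ACCCGUA, written in capitals. The sequences are from RefSeq on WBcel235, the assembly also called ce11, and are read 5′ to 3′.
mir-51: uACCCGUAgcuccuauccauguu
mir-52: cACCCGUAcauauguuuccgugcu
mir-53: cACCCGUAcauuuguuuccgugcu
mir-54: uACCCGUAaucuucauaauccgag
mir-55: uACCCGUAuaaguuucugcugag
mir-56: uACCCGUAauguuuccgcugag

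Other bound genes shared seeds or belonged to a known family, and their mature products are shown for that reason, with bases 2 to 8 in capitals. The seed AUGACAC is common to mir-229, mir-64 and mir-66. The seed GGCAAGA is common to mir-72, mir-73 and mir-74. The mir-58.1 and mir-80 products belong to the bantam family, named for its fly relative, and their seeds differ in the last base.
mir-229: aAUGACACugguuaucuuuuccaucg
mir-64: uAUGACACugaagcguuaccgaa
mir-66: cAUGACACugauuagggauguga
mir-72: aGGCAAGAuguuggcauagcuga
mir-73: uGGCAAGAuguaggcaguucagu
mir-74: uGGCAAGAaauggcagucuaca
mir-58.1: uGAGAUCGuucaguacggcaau
mir-80: uGAGAUCAuuaguugaaagccga

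The DNA under the summits at the mir-51 family is shown because these 6 peaks carry the calls of the whole family. Each line covers 100 bp on each side of a summit in ce11, on the plus strand. Capitals mark matches, on either strand, to TRTTKRY, the general consensus for PHA-4 (T, A or G, T, T, G or T, A or G, C or T), and adjoining or overlapping matches run together. None of these windows held the stricter FoxA-type site TGTTTAC or TGTTTGC, both of which are contained in the general consensus.
mir-53, chrIV:11027745-11027945, plus strand: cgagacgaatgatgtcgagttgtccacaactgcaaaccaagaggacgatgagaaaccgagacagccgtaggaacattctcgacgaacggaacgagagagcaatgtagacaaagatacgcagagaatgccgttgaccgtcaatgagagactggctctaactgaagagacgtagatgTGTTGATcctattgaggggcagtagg
mir-52 (distal), chrIV:14032919-14033119, plus strand: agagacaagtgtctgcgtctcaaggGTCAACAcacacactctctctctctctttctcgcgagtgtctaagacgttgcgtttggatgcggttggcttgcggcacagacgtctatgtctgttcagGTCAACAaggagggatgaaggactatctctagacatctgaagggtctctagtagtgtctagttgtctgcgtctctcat
mir-52 (proximal), chrIV:14033710-14033910, plus strand: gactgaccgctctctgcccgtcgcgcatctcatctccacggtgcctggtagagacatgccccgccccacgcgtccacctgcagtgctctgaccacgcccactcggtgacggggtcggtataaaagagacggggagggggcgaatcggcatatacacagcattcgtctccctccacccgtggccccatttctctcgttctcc
mir-51 (proximal), chrIV:11026120-11026320, plus strand: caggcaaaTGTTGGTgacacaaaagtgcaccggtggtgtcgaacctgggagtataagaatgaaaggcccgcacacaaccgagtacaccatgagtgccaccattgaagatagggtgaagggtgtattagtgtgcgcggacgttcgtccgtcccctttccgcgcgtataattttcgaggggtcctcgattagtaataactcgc
mir-51 (distal), chrIV:11026736-11026936, plus strand: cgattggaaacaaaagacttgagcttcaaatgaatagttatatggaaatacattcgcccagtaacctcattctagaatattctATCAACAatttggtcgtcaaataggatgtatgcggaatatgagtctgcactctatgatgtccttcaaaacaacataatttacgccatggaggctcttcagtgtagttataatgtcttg
mir-54, mir-55 and mir-56, chrX:13145228-13145428, plus strand: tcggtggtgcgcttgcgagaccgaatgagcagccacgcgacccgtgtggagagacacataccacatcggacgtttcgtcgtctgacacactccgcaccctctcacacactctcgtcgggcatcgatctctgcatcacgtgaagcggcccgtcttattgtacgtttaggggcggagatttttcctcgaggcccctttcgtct

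The windows at mir-73 and mir-74, at mir-58.1, and at the cluster of mir-229, mir-64, mir-65 and mir-66 are shown in the same way. Their peaks were among those with much higher signals in replicate 2 than in replicate 1. Other such peaks, as at mir-90 (8.61 in replicate 1, 34.4 in replicate 2) and mir-80 (8.41 and 26.1), are not shown.
mir-73 and mir-74, chrX:2368607-2368807, plus strand: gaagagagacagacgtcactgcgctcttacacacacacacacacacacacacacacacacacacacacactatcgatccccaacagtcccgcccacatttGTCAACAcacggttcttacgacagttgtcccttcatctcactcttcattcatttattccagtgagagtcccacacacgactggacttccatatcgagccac
mir-58.1, chrIV:3232825-3233025, plus strand: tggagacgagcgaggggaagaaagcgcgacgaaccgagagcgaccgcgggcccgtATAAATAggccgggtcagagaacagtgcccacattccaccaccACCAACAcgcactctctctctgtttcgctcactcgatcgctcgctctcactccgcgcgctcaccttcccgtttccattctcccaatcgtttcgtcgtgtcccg
mir-229, mir-64, mir-65 and mir-66, chrIII:2172029-2172229, plus strand: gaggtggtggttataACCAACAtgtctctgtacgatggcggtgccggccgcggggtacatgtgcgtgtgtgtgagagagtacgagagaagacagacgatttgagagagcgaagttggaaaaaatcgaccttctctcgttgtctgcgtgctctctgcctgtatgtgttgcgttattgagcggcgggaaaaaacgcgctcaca

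Of the 261 microRNA genes, 28 were bound, a share of 10.7% (interval 7.25 to 15.1%). By the same rule, 5.83% of all annotated genes and 8.58% of protein-coding genes were bound. Counting every annotated 5′ end of a protein-coding gene gave 9.16%. The protein-coding shares lay inside the interval for microRNA genes, so the overall share of bound microRNA genes was close to that background. Transfer RNA genes were bound at 14.9% and small nucleolar RNA genes at 31.2%. The 28 genes drew on 24 distinct peaks, 1.10% of the thresholded set, because 9 genes shared a peak with a neighbour. Counted once per shared peak, the bound genes made 22 loci. Any pooled entry, weak ones included, lay in the window of 107 microRNA genes (41.0%, interval 35.0 to 47.2%), against 28.2% of all annotated genes. The share was 33.6% for protein-coding genes and 14.9% for piRNA genes. For all non-coding classes without piRNA genes it was 36.7%, inside the microRNA interval. Transfer RNA genes stood at 61.1% and small nucleolar RNA genes at 60.1% by this count. No entry from any of the 4 lists lay at 99 of the genes.

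**Figure D1:**
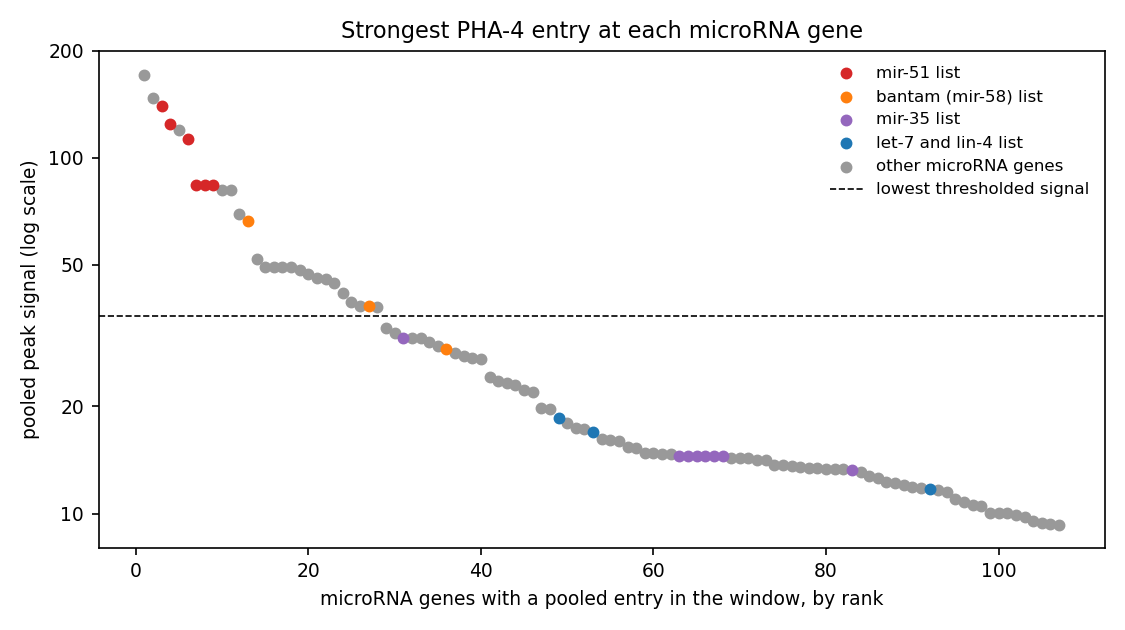
Strongest pooled entry in the window of each of the 107 microRNA genes that had one (vertical axis, peak caller signal on a log scale), in order of signal (horizontal axis, rank). Points are genes, coloured by list, and the dashed line is the lowest thresholded signal, 35.9; the 6 mir-51 family genes sit between 83.8 and 140, while the mir-35 and let-7 lists lie below the line.

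All 6 members of the mir-51 family were bound, by 6 distinct peaks at 3 places in the genome. At mir-53 the signal was 140 in the pooled list, 62.5 in replicate 1 and 72.8 in replicate 2, from a peak at chrIV:11027820-11027885 with its summit 154 bp upstream of the hairpin. At mir-51, the next hairpin downstream on the same strand, the nearer peak (chrIV:11026088-11026351) had signals of 113 pooled, 40.2 in replicate 1 and 75.5 in replicate 2, with its summit 108 bp upstream. Both genes were thus bound close to the hairpin in each replicate, by separate peaks. A weaker peak between them, 724 bp upstream of mir-51, had 38.1 pooled, 9.28 in replicate 1 and 26.5 in replicate 2.

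The mir-52 gene lies elsewhere on the same chromosome, and its peaks were 9970 and 10761 bp from the nearest protein-coding 5′ end. Its stronger peak (chrIV:14032887-14033150) had signals of 125 pooled, 56.5 in replicate 1 and 71.0 in replicate 2, and its summit lay 989 bp upstream, just inside the window. A peak 198 bp upstream of the hairpin had 35.9 pooled and 40.2 in replicate 1, with no overlapping entry in replicate 2. The distal mir-52 peak was therefore high in both replicates, while the proximal one had an overlapping entry in replicate 1 only and stood at the threshold. Replicate 2 had 3 entries in the mir-52 window, and the positions of the weaker ones are not given here. The proximal peak is 83 bp wide, so a replicate 2 entry close by but not overlapping it would be missed.

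The genes mir-54, mir-55 and mir-56 lie in a row on chromosome X within a host gene of the opposite strand, F09A5.3, and shared 1 peak (chrX:13145196-13145459). Its signals were 83.8 pooled, 36.3 in replicate 1 and 50.6 in replicate 2. The summit stood 234 bp upstream of mir-54, 404 bp upstream of mir-55 and 541 bp upstream of mir-56, so the peak marks the start of the cluster rather than each gene. A further peak (48.3 pooled, 16.6 in replicate 1, 33.6 in replicate 2) lay on the far side of the cluster, 409 bp downstream of the 5′ end of mir-56. It was counted for mir-55b, annotated on the opposite strand over mir-55, 452 bp upstream of its 5′ end. For the mir-51 family, the strongest window entry of each of the 6 genes was among the 2177 strongest entries of replicate 1 and also of replicate 2, a rank called strong here. None of its 6 peaks lay in a protein-coding promoter window, and the nearest protein-coding 5′ ends were 1340 to 10761 bp away. Genes annotated as other non-coding RNA (ncRNA) lay closer to 5 of the 6 summits than the microRNA did. The nearest 5′ end was that of F36H1.17, 1 bp from the proximal mir-51 summit and 617 bp from the distal one. At mir-52 separate ncRNA genes lay 22 bp from the distal summit and 56 bp from the proximal one, and at the mir-54 cluster it was F09A5.11 at 57 bp. With each peak given only to the nearest 5′ end of any class, mir-53 alone of the 6 genes kept its call, so the other 5 calls depend on letting a peak count for more than the nearest gene.

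**Figure D2:**
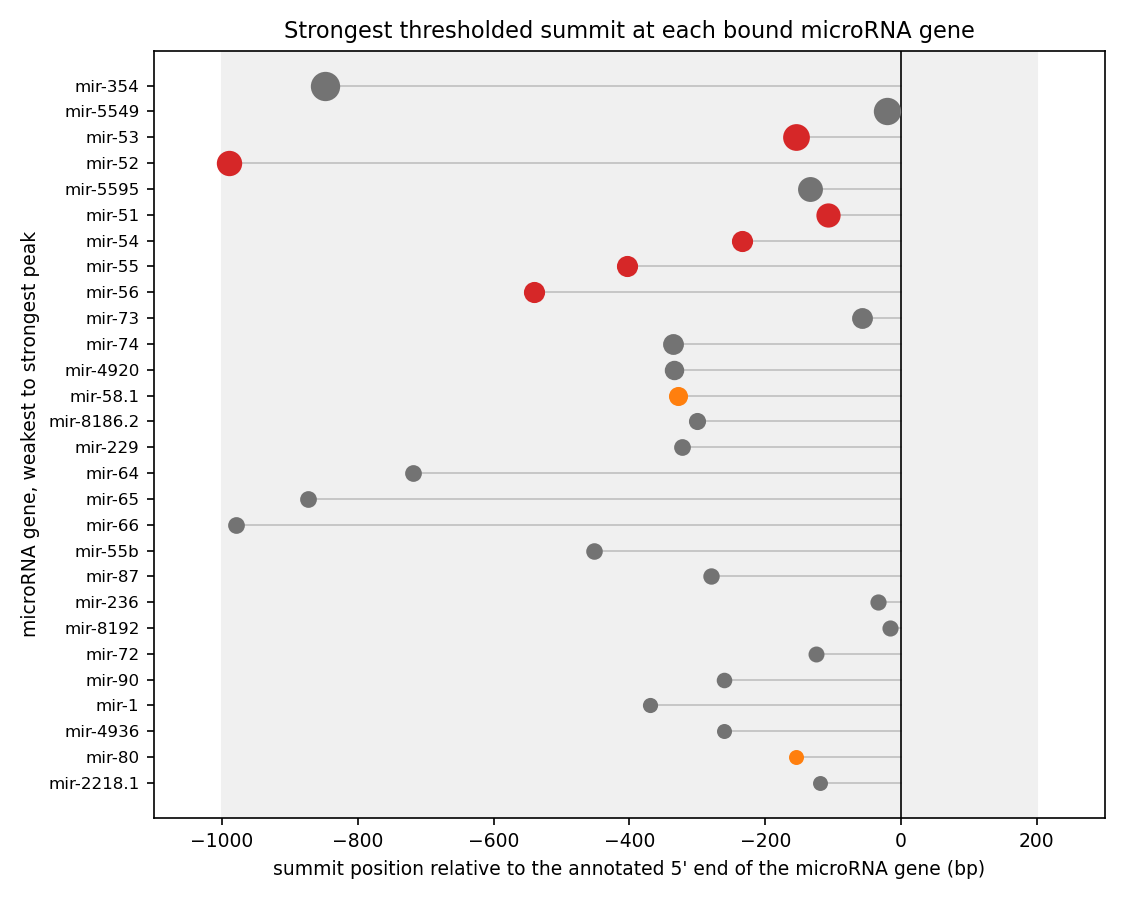
Summit of the strongest thresholded peak at each of the 28 bound microRNA genes (horizontal axis, bp from the annotated 5′ end, negative upstream), ordered by pooled signal. Dot area grows with signal, red marks the mir-51 family and orange the bantam genes, and the grey band is the window; all strongest summits lay upstream, from 989 to 16 bp.

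The cluster of mir-229, mir-64, mir-65 and mir-66 lies in an intron of gcn-1, a translational regulator, on the host's strand. These genes shared a peak (chrIII:2171997-2172260) with signals of 49.5 pooled, 12.6 in replicate 1 and 42.0 in replicate 2. Its summit was 323 bp upstream of mir-229, the leading gene of the cluster, and 20184 bp from the nearest gcn-1 5′ end. The replicate 2 peak was thus much the higher of the pair, and for mir-66, at 979 bp, the replicate 2 summit fell outside the window. The mir-63 gene, which has the seed of mir-229, is not in the cluster and had a pooled entry of 9.89 only.

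Genes with the seed GGCAAGA number 6, of which mir-72, mir-73 and mir-74 were bound and mir-266, mir-8187 and mir-8188 had no pooled entry. The peak at mir-73 and mir-74 (chrX:2368642-2368707) had signals of 81.1 pooled, 15.2 in replicate 1 and 74.6 in replicate 2. It ranked 95 in replicate 2 and 2422 in replicate 1. The peak at mir-72 (chrII:2452581-2452844) had 44.4 pooled, 12.3 in replicate 1 and 20.7 in replicate 2, and was strong in neither replicate.

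Of the bantam family list, 8 of 9 names were found in the annotation (mir-1834 was not, under that name), and 2 genes were bound. At mir-58.1, one of the most abundant worm microRNAs, the signals were 66.4 pooled, 6.88 in replicate 1 and 60.6 in replicate 2. That peak (chrIV:3232793-3233056) lay 329 bp upstream of the hairpin, ranking 191 in replicate 2 and 9904 in replicate 1. At mir-80 (chrIII:8865389-8865652) the signals were 38.3 pooled, 8.41 in replicate 1 and 26.1 in replicate 2. Both bantam peaks were strong in replicate 2 only. The mir-82 gene, with a pooled entry of 28.9, fell short of the threshold. No pooled entry lay at mir-58.2, mir-81, mir-2209.1, mir-2209.2 or mir-2209.3. The annotated mir-58c, which shares the seed of mir-80 but is not in the list, had no pooled entry either.

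Among conserved microRNAs of defined tissues, mir-1 was bound. It is the muscle microRNA, expressed in body wall and pharyngeal muscle. Its peak had signals of 39.4 pooled, 22.4 in replicate 1 and 26.4 in replicate 2, close to the threshold in the pooled list. Both overlapping replicate entries were strong, but their summits differed. The replicate 1 summit lay 29 bp from the pooled summit and the replicate 2 summit 253 bp from it. The pooled summit lay 369 bp upstream of the hairpin, in no protein-coding promoter window. The mir-236 gene, a member of the miR-200 and miR-8 seed family, had 45.9 pooled, 13.1 in replicate 1 and 26.8 in replicate 2, with its summit 34 bp upstream. At mir-87 the values were 47.2 pooled, 18.2 in replicate 1 and 34.2 in replicate 2. At mir-90 they were 41.8 pooled, 8.61 in replicate 1 and 34.4 in replicate 2. The mir-1 and mir-87 genes were strong in both replicates, and mir-236 and mir-90 in replicate 2 only.

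Several microRNA lists had no bound member. The let-7 and lin-4 list holds the timers of larval development, and 0 of 7 were bound. Its pooled entries were 18.5 at lin-4, 17.0 at mir-241 and 11.7 at mir-237, and let-7, mir-48, mir-84 and mir-795 had none. The let-7 gene is annotated at 1732 bp, much longer than a hairpin, and its window was set from the 5′ end of that gene. The stretch just upstream of the let-7 hairpin was therefore outside the window. All 8 mir-35 family genes had a pooled entry but none was bound. A shared entry of 14.5 covered mir-35 to mir-40, mir-41 had 13.3, and mir-42 had 31.2. The entry at mir-42 also served its neighbours mir-43 and mir-44, with 5.88 in replicate 1 and 25.0 in replicate 2. That entry was strong in replicate 2 and not in replicate 1. The mir-35 family thus had pooled entries under the threshold throughout, where the mir-51 family had thresholded peaks. The mir-2 list had 0 of 4 bound, with pooled entries of 32.2 at mir-2, 31.2 at mir-43 and 14.1 at mir-250 and none at mir-797. The mir-44 list had 0 of 4 bound, with 31.2 at mir-44, 14.1 at mir-61 and none at mir-45 or mir-247. The neuron and glia list had 0 of 6 bound. Its highest pooled entry was 33.3 at mir-228, a glial microRNA, followed by 19.8 at mir-124, a microRNA of sensory neurons, and 13.7 at mir-791. No pooled entry lay at mir-273 or mir-790. The left-right neuron regulator lsy-6 had no entry in any list. The intestine list had 0 of 3 bound, with 11.8 at mir-60 and none at mir-240 or mir-786. The stress and ageing list had 0 of 6 bound, led by 23.6 at mir-71, which promotes long life, with 14.7 shared by mir-239.1 and mir-239.2 and 10.8 at mir-246. No pooled entry lay at mir-238 or at mir-34, a DNA damage response microRNA. Across all 10 lists, 9 of 53 listed genes were bound (17.0%, interval 8.07 to 29.8%), against 19 of 208 unlisted microRNA genes (9.13%). The listed share includes the whole mir-51 family and was not tested.

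**Figure D3:**
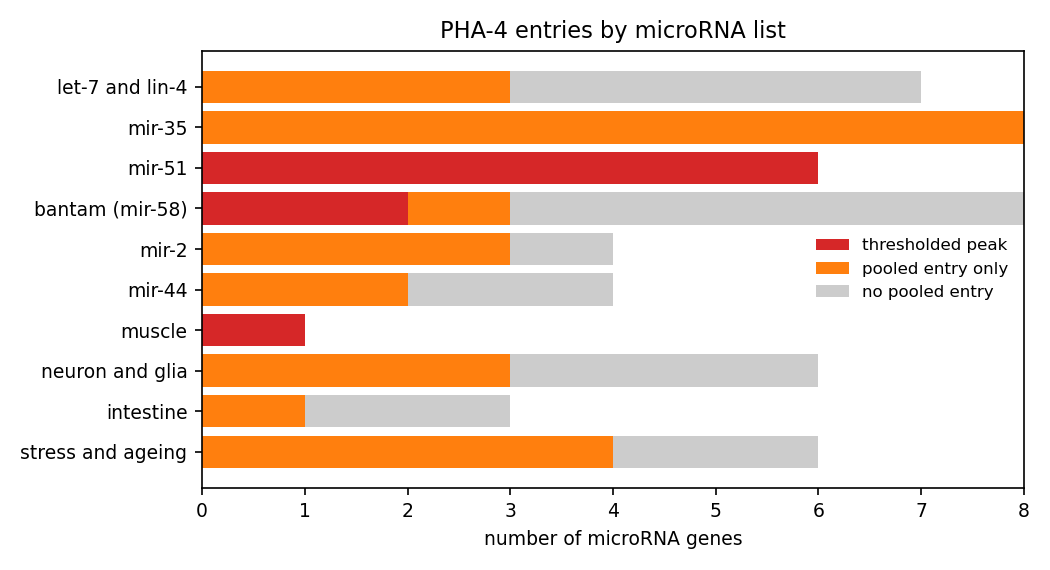
Number of genes in each microRNA list (horizontal axis) with a thresholded peak, with a pooled entry only, and with no pooled entry. All 6 mir-51 genes have a thresholded peak, all 8 mir-35 genes a pooled entry only, and none of the 7 let-7 and lin-4 genes a thresholded peak.

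The genes just under the threshold were few. The thresholded set ends at a signal of 35.9, and the weakest strongest peak of a bound gene was 38.1 at mir-2218.1. The 10 strongest genes without a thresholded peak were mir-228 at 33.3, mir-2 at 32.2, the trio mir-42, mir-43 and mir-44 at 31.2, mir-49 at 30.4, mir-4929 at 29.6, mir-82 at 28.9, mir-8201 at 28.3 and mir-5551 at 27.7. These values describe the edge of the rule and no test was made across it.

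Of the 28 bound genes, 20 had a peak in no protein-coding promoter window. As a share of all 261 microRNA genes this was 7.66%, against 2.19% of the genes of all non-coding classes combined and 4.23% of those without piRNA genes. Transfer RNA genes stood at 11.1% and small nucleolar RNA genes at 13.6% by the same count. Of the 24 peaks, 16 lay outside protein-coding windows (66.7%, interval 44.7 to 84.4%), against 37.4% of all 2177 thresholded peaks. The 24 were picked by their location at microRNA genes, of which 152 of 261 lie outside protein-coding genes. The part of the microRNA windows lying outside protein-coding windows is not given here, and the difference was not tested. These 16 peaks were 1.97% of the 814 thresholded peaks outside protein-coding windows.

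The other 8 bound genes shared their peak with a protein-coding promoter, and those peaks cannot be assigned to either gene. The strongest was at mir-354, whose hairpin lies in an exon of rps-20, a ribosomal protein gene. Its peak had signals of 171 pooled, 59.6 in replicate 1 and 111 in replicate 2, with the summit 848 bp upstream of the hairpin and inside the promoter windows of rps-20 and ekl-4. The peak at mir-5549 had 147 pooled, 73.8 in replicate 1 and 73.2 in replicate 2. It lay in the windows of eef-1A.1, a translation elongation factor gene, and rfc-4, a replication factor C gene. The peak at mir-5595 had 120 pooled, 48.0 in replicate 1 and 67.8 in replicate 2, at the promoter of the chromatin remodelling gene nurf-1. These 3 were high in both replicates. The other 5 were mir-4920 (69.3 pooled, at sph-1), mir-8186.2 (52.0, at gmeb-1), mir-8192 (45.5, at flcn-1), mir-4936 (38.4, at nduf-9) and mir-2218.1 (38.1, at W09G3.8 and maea-1).

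MicroRNAs inside introns can be made from the host's own transcript. An intron of a same-strand protein-coding host held 68 of the 261 microRNA genes. A thresholded peak lay at a 5′ end of the host for 11 of these 68 (16.2%, interval 8.36 to 27.1%), against 9.16% of all protein-coding genes, a share inside that interval. The 11 had 9 distinct hosts, of 62 in all. A thresholded peak lay in the microRNA gene's own window for 10 of the 68 (14.7%). Only mir-4920 and mir-8192 were in both counts, each through a peak shared with the host promoter. The remaining 8 with their own peak were the 4 genes of the gcn-1 cluster, mir-58.1, mir-55b, mir-87 and mir-90, and their hosts had no thresholded peak at any 5′ end. Hosts bound at their promoter, with no thresholded peak at the microRNA, included rpl-24.1, a ribosomal protein gene hosting mir-353 (signal 115). They also included Y56A3A.7, hosting mir-86 (104), gmps-1, hosting mir-2216 (85.6), and rsp-8, a splicing factor gene hosting mir-1832.1 (66.0). The host of mir-1828 is pash-1, whose product is a subunit of the complex that cuts microRNA hairpins from their precursors, and its promoter peak had a signal of 55.6. Bound hosts also included gid-2, hosting mir-82 (53.9), and piki-1, hosting mir-1829.3, mir-4812 and F39B1.3 (36.5).

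For 12 of the 24 peaks the nearest annotated 5′ end of any class was not that of a counted microRNA gene. It was that of an ncRNA gene for 9, a protein-coding gene for 2 and another microRNA gene, mir-56 beside the mir-55b peak, for 1. The ncRNA genes include T24D8.11, 6 bp from the mir-73 and mir-74 summit, Y67D8A.6, 237 bp from that at mir-58.1, C52E12.9, 2 bp from that at mir-236, and T09B4.17, 127 bp from that at mir-1. Under the nearest-end rule 12 microRNA genes stayed called.

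Summits clustered close upstream of the hairpins. Measured from the nearest member that the window called, all 24 summits were upstream, at a median of 247.5 bp. Of these, 21 lay within 500 bp and 11 within 200 bp. The window reaches 1000 bp upstream but only 200 bp downstream, so the rule itself favours upstream summits. The mir-55b summit counts as upstream although it lay 409 bp downstream of the nearer 5′ end, that of mir-56. Without regard to the window, 23 thresholded summits lay within 1000 bp upstream of their nearest microRNA 5′ end, 16 from 1000 to 2000 bp, and 7 within 1000 bp downstream. Pooled entries of any strength showed the same order, with 99, 78 and 62 summits in those stretches. A window of 2000 bp upstream raised the bound genes to 42, adding let-7, with a peak of 50.1 at 1852 bp, and mir-71, with a peak of 41.5 at 1220 bp. The let-7 distance is from the 5′ end of its long annotated gene, so the let-7 hairpin is farther from that peak.

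**Figure D4:**
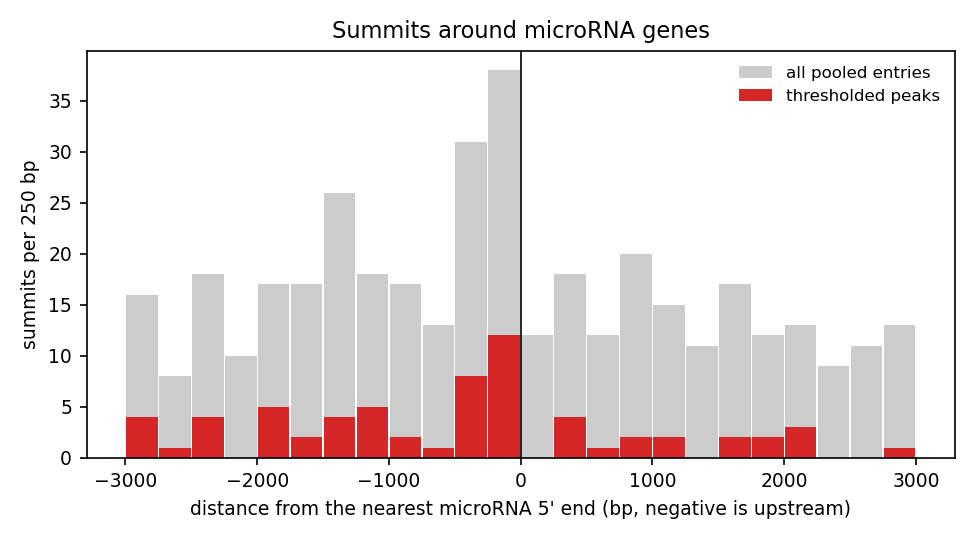
Summits per 250 bp (vertical axis) by distance from the nearest microRNA 5′ end (horizontal axis, bp, negative upstream), for all pooled entries in grey and thresholded peaks in red. Both are highest in the bins just upstream of 0, with 23 thresholded summits in the 1000 bp upstream and 7 in the 1000 bp downstream.

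The replicates ordered these peaks alike only in part. Of the 261 genes, 21 had a strong entry in replicate 1, 31 in replicate 2 and 15 in both (5.75%), against 3.93% of all annotated genes and 5.81% of protein-coding genes, so the share was close to the protein-coding background. All 15 were among the 28 bound genes. Beside the mir-51 family they were mir-1, mir-354, mir-4920, mir-55b, mir-5549, mir-5595, mir-8186.2, mir-8192 and mir-87. Strong in replicate 2 only were mir-2218.1, mir-229, mir-236, mir-58.1, mir-64, mir-65, mir-73, mir-74, mir-80 and mir-90. The gene mir-4936 was strong in replicate 1 only, and mir-66 and mir-72 in neither. Signals were higher in replicate 2 at 21 of the 23 peaks with an entry in both lists, and the log2 ratio of replicate 2 to replicate 1 had a median of 0.76 (SD 0.81 over the 23 peaks). At the other 2130 thresholded peaks with both entries the median was 0.32 (SD 0.78). Spearman's rho of the replicate signals was 0.58 over the 23 microRNA peaks and 0.35 over the others, all drawn from the same 2 libraries and selected by pooled signal. With replicate 2 left out, the 2177 strongest entries of replicate 1 called 21 microRNA genes, 16 of the 28 among them, and the genes bound outside protein-coding windows numbered 12 instead of 20. With replicate 1 left out, those of replicate 2 called 31 genes, 25 of the 28 among them.

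**Figure D5:**
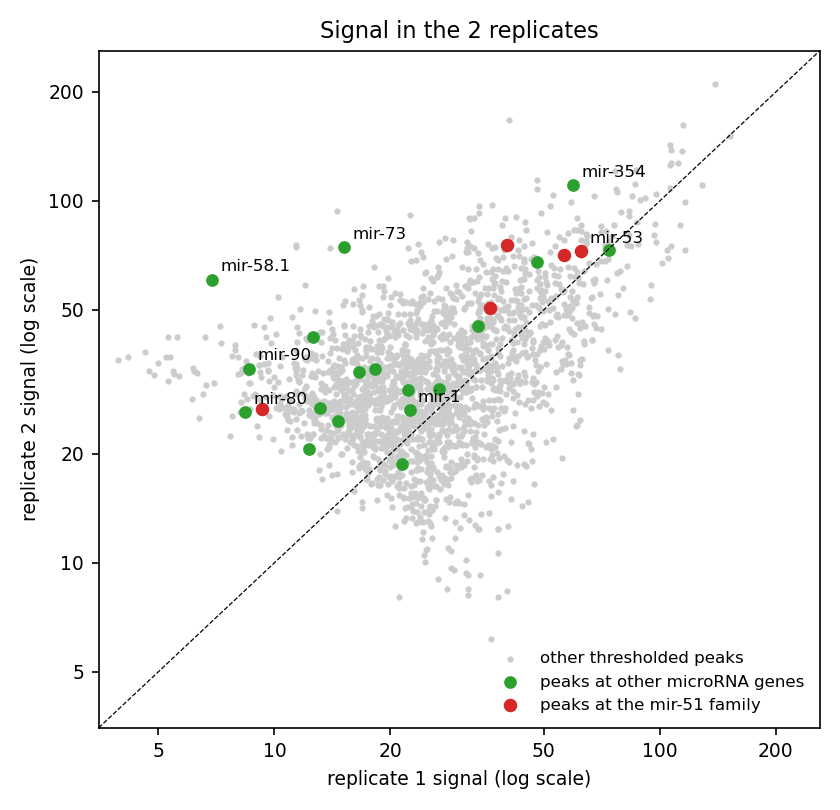
Signal of each thresholded peak in replicate 1 (horizontal axis) and replicate 2 (vertical axis), both on log scales, with the dashed line at equal values. Grey points are the other thresholded peaks, green those at microRNA genes and red those at the mir-51 family; 21 of 23 microRNA peaks lie above the line, with mir-58.1 (6.88 and 60.6) farthest from it. The other peaks also had a positive median log2 ratio of replicate 2 to replicate 1, 0.32, and the replicate signals are not scaled to each other.

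The median pooled signal of the 24 peaks was 48.9 (range 35.9 to 171), against 54.5 for the other 2153 thresholded peaks. The 16 outside protein-coding windows had a median of 47.8 and the 8 inside a median of 60.7. Of the strongest 200 thresholded peaks, 6 lay at microRNA genes (3.0%, interval 1.11 to 6.42%), against 1.10% of the whole set. Other cuts gave 1 of the strongest 50 (interval 0.0506 to 10.6%) and 3 of the strongest 100 (interval 0.623 to 8.52%). Of the strongest 500 it was 8 (1.6%, interval 0.693 to 3.13%), and these other intervals include 1.10%. The median was thus lower than that of the other peaks, while the top ranks held a share at or above the whole set's, and neither difference was tested. The 6 among the strongest 200 were the peaks at mir-354, mir-5549, mir-53, mir-52, mir-5595 and mir-51. Those at mir-354, mir-5549 and mir-5595 lay in protein-coding promoter windows.

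Summit windows of 201 bp, searched on both strands, held TGTTTAC or TGTTTGC at 1 of the 24 peaks (4.17%, interval 0.105 to 21.1%), against 20.6% of all thresholded peaks. The match was at the mir-55b peak, 59 bp from the summit. The general consensus TRTTKRY was present at 16 of 24 (66.7%, interval 44.7 to 84.4%), against 61.1%. The repeat word GAGAGA was present at 13 of 24 (54.2%), against 47.7%, and ACGCAGA at 7 of 24 (29.2%), against 20.6%. Within 50 bp of the summit the microRNA shares were instead below those of all thresholded peaks. There TRTTKRY was present at 8 of 24 (33.3%, against 42.5%), GAGAGA at 6 (25.0%, against 33.2%) and ACGCAGA at 3 (12.5%, against 14.8%). The median GC content of the microRNA windows was 49.8%, against 44.8% for all thresholded windows. A match says only that the letters are present.

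The bound genes lay on all 6 nuclear chromosomes. Chromosome III held 8 bound of 27 microRNA genes, of which 4 belonged to the gcn-1 cluster, and X held 6 of 74, of which 3 belonged to the mir-54 cluster. The counts were 3 of 33 on chromosome I, 5 of 49 on II, 5 of 50 on IV and 1 of 28 on V. The share of all annotated genes bound on each chromosome is not given here. These counts therefore do not show whether microRNA genes differ from other genes of their chromosome.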

How the data were processed

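The files were ChIP-seq peak lists for PHA-4 carrying eGFP, from 2 biological replicates. Per the labels and the listings deposited with the samples, the authors called peaks on ce11 on each replicate and on both pooled, against 2 control files, and took the thresholded set from an irreproducible discovery rate comparison. The names of caller and aligner and the rate's threshold were not given in the sources used here. The deposited signal is the caller's value relative to control reads and has no common scale across lists. The extraction protocol is not provided, and depth is unknown, so precision rests on the agreement of the 2 replicates.

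Gene positions came from Ensembl release 115 (WBcel235), and mature sequences from RefSeq coordinates on the same assembly, matched by WormBase ID for 260 of 261 genes. Mature sequences are shown for the families the results turn on, and 1 sequence is not reported here. Names are RefSeq symbols where given. A strong entry is among the 2177 strongest of a replicate list. A peak's replicate value is its strongest overlapping entry. Same-strand hosts are protein-coding genes holding the hairpin within an intron. Motifs were counted within 100 bp of summits. All annotated genes were processed by the same rule. Window and motif code was tested on simulated data.

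Named genes are all bound genes, the 10 strongest below the threshold, all listed family members, and protein-coding genes sharing a named peak; hosts, nearest ncRNA genes, further genes of shared seed and genes gained under other settings were named after their values were seen. The members and lists were chosen with earlier results of these data known, and the word ACGCAGA was taken from them. Alternatives were windows of 500 and 2000 bp, peak overlap in place of summits, the stronger 1088 peaks, each replicate alone, nearest 5′ end only, motif windows of 50 bp, and other cuts for strong entries. Python 3.11.15 was used with pandas 2.3.3, numpy 2.4.6 and scipy 1.17.1, and matplotlib 3.10.9 drew the figures.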

Additional observations from a re-analysis of the deposited data

How the results depend on the processing

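The count of 28 bound microRNA genes was 23 with a 500 bp window, 42 with 2000 bp, 30 by peak overlap and 22 with shared peaks counted once. It fell to 13 in the stronger part of the thresholded set and to 12 with each peak given only to the gene of any class whose 5′ end was nearest. Distinct peaks numbered 40 with 2000 bp and 10 in the stronger part, against 24, and genes bound outside protein-coding windows 9 in the stronger part, against 20. Taking any replicate entry, 94 genes had one in both replicates, against 15 with strong entries. TGTTTAC or TGTTTGC was at 0 of 24 peaks within 50 bp of the summit (upper bound 14.2%), against 1 within 100 bp, and TRTTKRY was at 16 within 100 bp. With 1 replicate left out, the ranges were 21 to 31 bound genes, 20 to 25 peaks, 120 to 135 genes with any entry, 12 to 21 genes outside protein-coding windows, and medians of 21.8 to 34.4 on the replicates' own scales. The genes mir-51, mir-52, mir-53, mir-54, mir-55, mir-4920, mir-5549 and mir-5595 were called under every window, overlap, strength and replicate setting, 8 of 28. Of these, mir-53, mir-5549 and mir-5595 were also called with the nearest 5′ end only. That setting ended 16 of the 28 calls, among them mir-51, mir-52, mir-54, mir-55, mir-56 and mir-4920. At mir-52 the 500 bp window kept only the proximal peak (35.9), and the stronger part of the set only the distal one (125). No single mir-52 peak thus met every window and strength setting. The host count of 11 was 8 and 12 with the 500 and 2000 bp windows. No paired analysis was possible because there was 1 group. The causes of these changes were not tested beyond what each setting does by construction. Unknown depth, the hairpin's 5′ end standing in for the start of transcription, and whole embryos of mixed stage limit these calls.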

Other observations

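MicroRNA genes with low numbers in their names, which were mostly named early, were bound more often in these lists than those with high numbers, in a split chosen after the values were seen. Of the 119 genes numbered up to 392, 21 were bound (17.6%, interval 11.3 to 25.7%) and 66 had any pooled entry (55.5%). Of the 141 numbered from 784 upward, 7 were bound (4.96%, interval 2.02 to 9.96%) and 41 had any pooled entry (29.1%). Of all annotated genes, 5.83% were bound and 28.2% had any pooled entry, and of protein-coding genes 8.58% and 33.6%. Both background bound shares lie inside the interval for the high-numbered genes, whose share was thus close to background. Genes sharing a peak are not independent, so these intervals are too narrow: counted once per shared peak, the bound low-numbered genes made 15 loci and the high-numbered ones 7. Of the 21 bound low-numbered genes, 20 had their peak outside protein-coding promoter windows, all but mir-354. Of the 7 bound high-numbered genes, 0 did. The lists hold no expression values, so whether the high-numbered genes are transcribed in these embryos was not tested.

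The mir-42, mir-43 and mir-44 cluster passed in replicate 2 alone, and mir-49 in replicate 1 alone, although none of these genes was bound in the thresholded set. The strongest window entries at mir-49 were 22.3 in replicate 1 and 9.17 in replicate 2. Their summits lay at -132 and -986 bp from its 5′ end, so these are different entries and not values of 1 site. The mir-73 and mir-58.1 peaks went furthest towards replicate 2, and no microRNA peak with both entries had a log2 ratio below -0.19.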
